A study of Rattus norvegicus with 21 samples.

Results

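The cerebral cortex of rats 48 h after the last of a series of exposures to hypobaric hypoxia was compared with the cortex of unexposed rats. The members are the 3 cortex libraries taken at 48 h and the 4 control cortex libraries, that is, 7 of the 21 libraries of the study, chosen by their titles. Genes were described where their mean over these 7 libraries was at least 10 normalised reads, and 14756 of 30560 Ensembl gene IDs met this. A further 7182 IDs had a lower mean, and 8622 were at 0 in all 7.

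All animals were male SD rats of genotype WT that were 4 weeks old at the start and were acclimated for 2 weeks, to a weight of about 200 g. Of 12 rats, 8 were exposed in a hypobaric chamber, 1 of which died, and 4 stayed in normal air. In each exposure the pressure was lowered to that of 10000 ft for 1 min and then to that of 28000 ft for 5 min, and 6 such exposures were given 3 days apart. RNA came from 50 mg pieces of whole tissue, so the values mix all cell types of the piece, and fewer cells of a type cannot be told apart from less RNA per cell. The control rats had the same housing, and the labels do not say that they were placed in the chamber.

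At high altitude the low air pressure lowers the oxygen that reaches the blood, and the brain, which depends on a steady supply, is sensitive to this. Cells sense low oxygen mainly through the hypoxia-inducible factors, transcription factors that are destroyed when oxygen is plentiful and that switch on genes of glycolysis, blood vessel growth and red cell formation when it is not. This response fades once oxygen returns to normal, while later changes in a tissue can involve glial cells, vessels, stress proteins and synapses. The deposited table gives Ensembl IDs with no gene names, and 0 of them could be paired with a symbol through the reference table. Genes of these pathways, and the markers that would check the labelled tissue, could therefore not be looked up, and the results below are given by counts of genes and by 4 example IDs.

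The 7 libraries held 12244465 to 19304803 reads in genes and had reads in 18502 to 19688 genes. Cortex control 3 stood apart from the other 6. The root mean square difference in log2 values between a pair of libraries was 0.986 to 1.18 in the 6 pairs with control 3. It was 0.461 to 0.613 between the other controls, 0.497 to 0.658 between the 48 h libraries, and 0.475 to 0.666 between these 2 sets. Without control 3, libraries of different groups thus lay about as far apart as libraries of 1 group. The first principal component of the 7 libraries held 56.3% of the variance and set control 3, at 105.2, against the others, at -33.2 to -0.66. On a scale from 0 at the cortex median to 1 at the hippocampus median, taken over genes with at least a 4-fold gap between the tissues, control 3 lay at 0.41 and the other 6 between -0.10 and 0.11. Over genes at least 4-fold higher in cortex, control 3 summed to 167792, against 422101 to 482268 in the other controls. Over those at least 4-fold higher in hippocampus it summed to 113800, against 114261 to 166254. The part of this library's tissue make-up in the results was not tested, and results that rest on it are given with and without it.

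**Figure D1:**
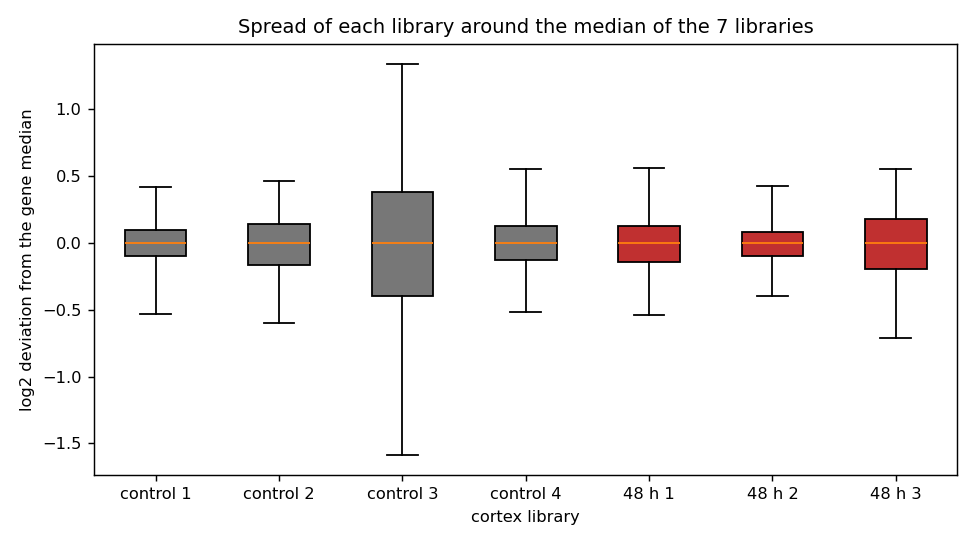
Spread of each of the 7 cortex libraries around the gene medians. The y axis is the log2 difference of a gene's value from its median over the 7 libraries, for 14756 genes. Boxes span the quartiles, lines inside mark the medians, and whiskers reach the 5th and 95th percentiles. Grey boxes are controls and red boxes 48 h. The box of control 3 is 0.777 high, against 0.18 to 0.369 for the other 6.

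Single genes showed the same. Control 3 was the library farthest from the median in 48.3% of the 14756 genes, and the next was 48 h replicate 3 with 13.7%. In control 3, 2708 genes lay more than 2-fold from the median of the 7 libraries. In the other 6 libraries the number was between 196 and 515.

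No gene passed the test between 48 h and control. limma called 0 of 14756 genes at an adjusted p of 0.05 (0%), and the smallest adjusted p was 0.884. edgeR also called 0 (0%), and DESeq2 called 2, both lower at 48 h (0.0136%). DESeq2 gave no adjusted p for 139 of the 14756 genes. At an unadjusted p under 0.05, limma had 512 genes, which is 3.47% of those tested, edgeR 595 and DESeq2 697. A share of 5% is what genes with no difference give, so the limma number lay below it. Of the 512 genes, 140 were higher at 48 h (0.949%) and 372 lower (2.52%). The number of 512 depended on the libraries in the fit. It was 777 without control 1, 389 without control 3, and 338 and 282 without 48 h replicates 2 and 3. Without 24 h replicate 3, which served only to estimate the spread, it was 960. The smallest adjusted p in limma was 0.109 without control 3. In each of these fits limma called 0 genes, and lower genes outnumbered higher ones.

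The genes at an unadjusted p under 0.05 were of ordinary abundance and had modest differences. The 372 lower genes had a median mean of 252 normalised reads and a median log2 difference of 0.59 in size, with quartiles of 0.46 and 0.80. The 140 higher genes had a median mean of 226 and a median difference of 0.56, with quartiles of 0.41 and 0.84. The groups did not overlap in 298 of the 372 (80.1%, against 5.47% of all genes) and in 97 of the 140 (69.3%, against 3.62%). The p and the overlap come from the same libraries, so these shares are no separate result. More than 2-fold apart were 47 of the lower and 21 of the higher genes. Without control 3, 180 of the 372 and 59 of the 140 still had an unadjusted p under 0.05.

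The 4 example IDs are those with the smallest p in limma in each direction. They were picked for this, so their separation and their intervals are a description only. None passed the test, with a limma adjusted p of 0.884 for each. Values are normalised read counts, that is, reads divided by 1 size factor per library, and differences are on the log2(value + 1) scale.

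ENSRNOG00000011817 had the smallest p of all genes and was lower at 48 h. Its values were 1046, 1425, 1545 and 1219 in controls 1 to 4 and 497, 586 and 691 in 48 h replicates 1 to 3. Every 48 h library lay below every control, and the highest 48 h value was well under the lowest control of 1046. The mean was 1309 ± 221 (SD, n = 4) in controls and 591 ± 97.3 (SD, n = 3) at 48 h, a log2 difference of -1.14 (SE 0.21, 95% interval -1.61 to -0.68). limma gave an unadjusted p of 0.00028. It was 1 of the 2 genes called by DESeq2 (adjusted p = 0.0092). edgeR gave an adjusted p of 0.877, and the adjusted p over the 24 other fits ran from 0.0092 to 1. The other gene that DESeq2 called was also lower without overlap and had an unadjusted p of 0.00157 in limma.

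At 24 h this gene lay on the other side of the same controls. Its values in cortex at 24 h were 1686, 2869 and 2053 in replicates 2 to 4, above every control. Replicate 3, the highest, lay at 0.26 on the scale between the tissues. The log2 difference between 24 h and control was 0.73 (95% interval 0.27 to 1.20, limma adjusted p = 0.601). Between 48 h and 24 h the log2 difference was -1.87 (95% interval -2.37 to -1.38), with an unadjusted p of 8.02e-06 and an adjusted p of 0.118 in limma, which missed the threshold. The comparisons at 24 h and 48 h share the 4 control libraries. In hippocampus the mean of this gene at 24 h was 943 (n = 3), under the 2070 of controls (n = 4), and the groups overlapped.

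ENSRNOG00000043348 was the other ID with a lower value at 48 h. It had 235, 245, 387 and 276 in controls 1 to 4 and 136, 117 and 132 in 48 h replicates 1 to 3. The 48 h libraries lay close together and below all controls, of which control 3 was the highest. The means were 286 ± 69.8 (SD, n = 4) and 128 ± 9.6 (SD, n = 3), a log2 difference of -1.12 (SE 0.26, 95% interval -1.70 to -0.55, limma unadjusted p = 0.00144). Without control 3 the difference was -0.97. At 24 h its values were 233, 482 and 282, which overlapped the controls.

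ENSRNOG00000025691 led the genes with a higher value at 48 h. It had 145, 141, 164 and 170 in controls 1 to 4 and 289, 260 and 202 in 48 h replicates 1 to 3. All 3 libraries at 48 h were above all controls, with replicate 3 the nearest to them. The means were 155 ± 14.2 (SD, n = 4) and 250.5 ± 44.2 (SD, n = 3), a log2 difference of 0.68 (SE 0.16, 95% interval 0.33 to 1.04, limma unadjusted p = 0.00165). At 24 h the values of 194, 201 and 174 lay between the 2 groups.

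ENSRNOG00000018770 had 135, 94.6, 97 and 83.8 in controls 1 to 4 and 153, 206 and 256 in 48 h replicates 1 to 3. The 48 h libraries spread widely, and replicate 1 lay just above control 1, the highest control. The means were 103 ± 22.3 (SD, n = 4) and 205 ± 51.6 (SD, n = 3), a log2 difference of 0.98 (SE 0.25, 95% interval 0.42 to 1.55, limma unadjusted p = 0.00309). At 24 h its values were 94.3, 149 and 153. The lowest value of this ID rests on 84 reads, in control 4.

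**Figure D2:**
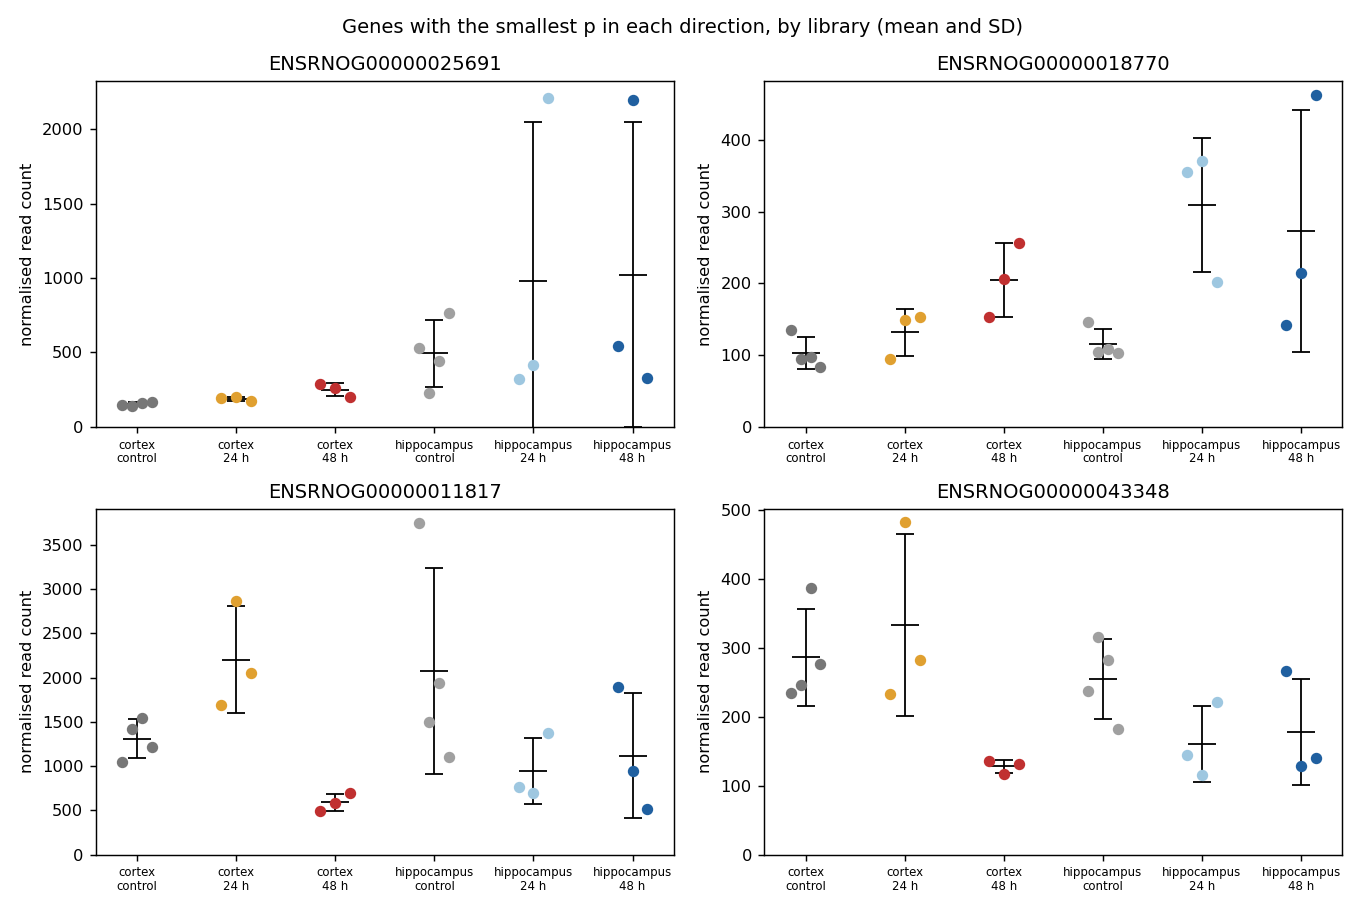
Normalised read count of the 4 example IDs in the 20 libraries with a group. Each point is a library, the x axis gives tissue and time, the long dash is the mean and the bars are the SD (n = 4 for controls, n = 3 otherwise). In cortex the 48 h points of ENSRNOG00000011817 lie at 497 to 691, under controls at 1046 to 1545 and 24 h points at 1686 to 2869.

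The hippocampus libraries of the same study give these 4 IDs in a second tissue. The study had 4 control rats and 3 rats at 48 h, so both tissues came from the same rats and are not independent samples. The titles use the same replicate numbers in both tissues, but the labels do not say whether libraries of the same group and number share a rat. ENSRNOG00000018770 had 147, 104, 108 and 104 in hippocampus controls 1 to 4 and 142, 215 and 463 at 48 h in replicates 1 to 3. Its log2 difference in hippocampus was 1.07 (95% interval 0.18 to 1.97, limma adjusted p = 0.931), close to that in cortex, though control 1 and 48 h replicate 1 overlapped. ENSRNOG00000011817 had a log2 difference of -0.94 there (95% interval -2.07 to 0.19), or -0.60 without hippocampus control 1, where its value was 3742 against 1106 to 1937 in the other controls. The log2 difference of ENSRNOG00000043348 was -0.57 (-1.34 to 0.21) and that of ENSRNOG00000025691 was 0.69 (-1.06 to 2.44). All 4 had the sign seen in cortex, also without hippocampus control 1, and the groups overlapped for each of them. ENSRNOG00000025691 had 531, 229, 445 and 768 in hippocampus controls 1 to 4 and 542, 2198 and 325 in 48 h replicates 1 to 3. Only 48 h replicate 2 lay above the range of its controls, so its positive difference there rested on that library. The signs were not checked with hippocampus 48 h libraries left out. In an interaction test of the 48 h response between the tissues, limma, edgeR and DESeq2 each called 0 of 15003 genes (0% in limma). At an unadjusted p under 0.05 they had 198, 384 and 504 genes. DESeq2 gave no adjusted p for 482 of the 15003 genes. These tests treat the libraries of both tissues as independent, since the labels do not match the rats. No fit paired the tissues by group and number. The interaction of ENSRNOG00000011817 was -0.20 (95% interval -1.42 to 1.01), so the intervals allow sizeable differences between the tissues in either direction.

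Over all genes, the differences between 48 h and control were small. The median size of a log2 difference was 0.19, the median difference was 0.01, and 86.2% of genes differed by less than 0.5. The 95% interval lay within a 2-fold difference in both directions for 67.3% of genes. The spread depended on abundance. Of the 4096 genes with a mean of 10 to 100, the interval lay within 2-fold for 36.4%, and the median interval reached 0.86 to either side. For the 8072 genes with a mean of 100 to 1000 and the 2481 genes with one of 1000 to 10000, the shares were 79.1% and 80.1%, and the median intervals reached 0.45 and 0.43. For the 107 genes with a mean over 10000 the share was 60.7%. A 2-fold difference in one direction or the other thus lay inside the interval for most genes with a mean under 100, and for a minority of those with a mean of 100 to 10000.

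The most abundant genes were on balance slightly higher at 48 h, and this rested on 1 control. The median log2 difference was 0.06 for genes with a mean of 1000 to 10000 and 0.14 for those over 10000, against -0.01 for each of the lower classes. Without control 3 these medians were -0.002 and -0.02. Of the 107 genes over 10000, 0 were under an unadjusted p of 0.05 in limma, compared with 3.47% of all genes. In this class 2 genes were higher without overlap (1.87%, against 3.62% of all genes) and 3 lower (2.80%, against 5.47%).

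The larger spread of the controls rested on control 3. The median SD per gene on the log2 scale was 0.308 in controls (n = 4) and 0.197 at 48 h (n = 3), and without control 3 it was 0.195 in controls (n = 3). In the 4 classes of abundance, from low to high, it was 0.49, 0.253, 0.266 and 0.351 in the 4 controls, 0.344, 0.17, 0.146 and 0.195 without control 3, and 0.351, 0.17, 0.144 and 0.177 at 48 h.

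In 1341 genes (9.09%) all 48 h libraries lay on one side of all controls. They were higher in 534 (3.62%) and lower in 807 (5.47%). Most of these differences were small. The log2 difference was under 0.5 in 367 of the 534 and in 506 of the 807, and over 1 in 29 and 47. The gap between the nearest libraries of the groups had a median of 0.06 in the higher and 0.09 in the lower genes on the log2 scale, and exceeded 0.5 in 7 and 16 genes. The largest differences without overlap were 3.39 and -3.36. The share of lower genes was 6.24% for a mean of 100 to 1000 and 3.69% for a mean of 10 to 100, and the share of higher genes was 3.78% and 2.98%. With 1 library fewer more genes separate, and the number was 1912 without control 3, 2443 without control 1, and 2498, 2271 and 2274 without 48 h replicates 1, 2 and 3. Lower genes outnumbered higher ones in all of these. The share without overlap that genes with no difference would give was not computed, and the reference share given for p does not apply to it.

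**Figure D3:**
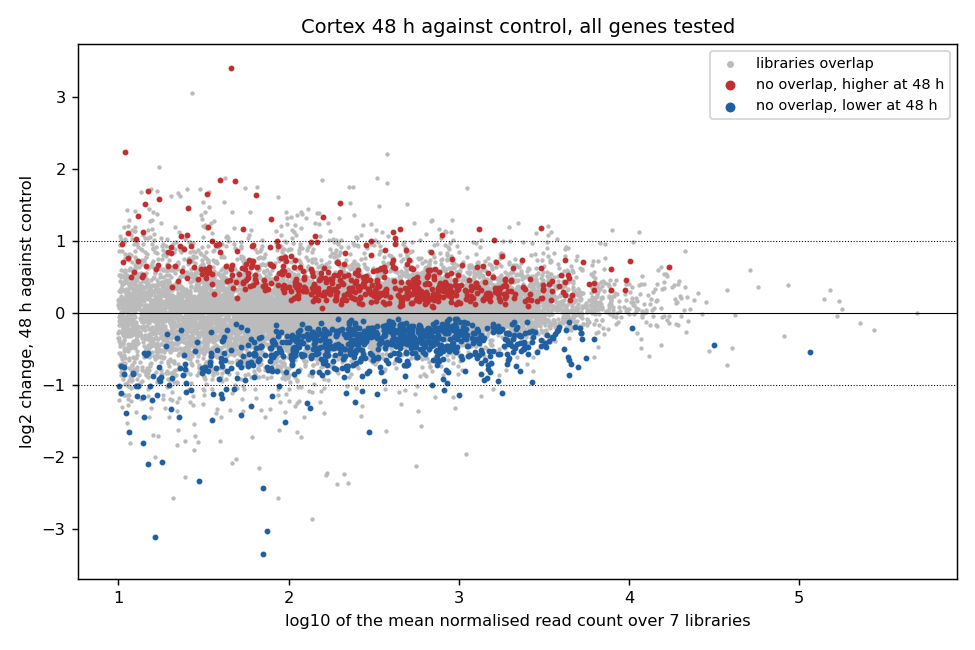
Log2 difference between 48 h and control (y axis) against the log10 of the mean normalised read count (x axis) for 14756 genes in cortex. Red points are the 534 genes with all 48 h libraries above all controls, blue points the 807 with all below, and grey points the rest. Dotted lines mark a 2-fold difference. The cloud narrows from low to high means, and most coloured points lie within the dotted lines.

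More than 2-fold apart were 173 genes with a higher and 174 with a lower mean at 48 h. Groups overlapped in most of them, since 29 and 47 had no overlap. Of all genes, 3.62% were higher and 5.47% lower without overlap, and the size and the overlap come from the same libraries. Control 3 was the farthest library in 240 of these genes (69.2%), and the next were 48 h replicates 1 and 3 with 26 each. Without control 3 the numbers were 81 and 70, of which 39 and 53 were also among the first. Without any 1 of the other 6 libraries the numbers were larger, 237 to 349 higher and 179 to 304 lower. Low genes made up much of this set, with a mean under 100 in 56.1% of the higher and 69.5% of the lower genes.

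**Figure D4:**
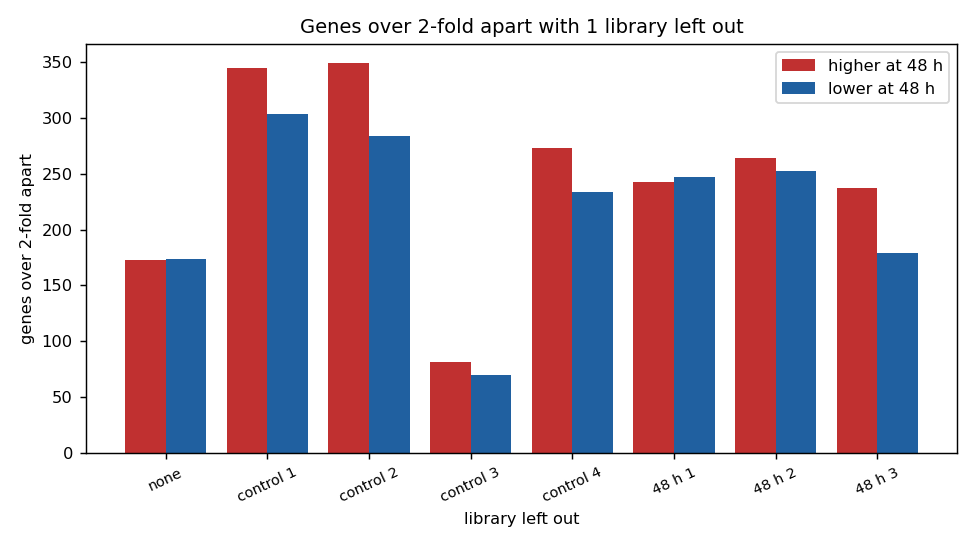
Number of genes with group means more than 2-fold apart in cortex, 48 h against control, with all 7 libraries and with each left out in turn (x axis). Red bars are genes higher at 48 h and blue bars genes lower. The bars without control 3 are the lowest, at 81 and 70, against 173 and 174 with all libraries.

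Genes that differ between the tissues were split unevenly between the cortex groups. Over all cortex and hippocampus libraries with a group, 212 genes tested here had a median at least 4-fold higher in cortex, and 116 had one at least 4-fold higher in hippocampus. The 7 libraries were among those that chose these genes. Genes high in cortex had a median log2 difference of 0.40 between 48 h and control, with 167 of 212 higher. Their summed value was 167792 in control 3, 422101 to 482268 in the other controls and 396090 to 489447 at 48 h. Without control 3 the median was 0.01 and 110 of 212 were higher. Genes high in hippocampus had a median of -0.42, with 92 of 116 lower at 48 h. Without control 3 it was -0.37, with 88 lower. Their summed value was 113800 in control 3, 114261 to 166254 in the other controls, and 140274, 72379 and 61141 in 48 h replicates 1 to 3. Replicate 1 thus overlapped the controls, and the other replicates lay below all of them. Without 48 h replicate 3 the median was -0.18 and without replicate 1 it was -0.69. Of these 116 genes, 5 were lower without overlap (4.31%, against 5.47% of all genes) and 0 higher (against 3.62%). Of the 212 genes high in cortex, 1 was lower and 1 higher without overlap (0.472% each), below both shares. How much hippocampus-like tissue in the pieces had a part in these values was not tested.

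Genes with reads in 1 group alone were few and low. 11 IDs had reads in all 3 libraries at 48 h and in none of the controls, and 22 had reads in all 4 controls and in none at 48 h. None of them reached a mean of 10 over the 7 libraries, and their highest group means were 3.98 and 3.19 normalised reads.

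The genes that separated in cortex were also looked at in hippocampus at 48 h, in other libraries of the same rats. Of the 807 genes lower without overlap in cortex, 77.7% were lower in hippocampus, against 48.1% of all genes. Of the 534 higher ones, 64.4% were higher in hippocampus, against 51.9% of all. Both shares rested on hippocampus control 1, a library with 4654096 reads. Without it they were 50.4% and 37.1%, against 49.7% and 50.3% of all genes. Leaving out any other hippocampus library used here gave 73.9% to 79.4% and 60.7% to 72.1%. Without overlap in the same direction in hippocampus were 15 of the 807 (1.86%, against 1.60% of all genes) and 11 of the 534 (2.06%, against 1.74%).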

How the data were processed

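Per the labels' protocols, RNA was extracted from rat cortex with TRIzol and sequenced after stranded library preparation from mRNA. fastp 0.20.0, HISAT2 2.1.0 and featureCounts 2.0.1 are named in the submitters' processing notes. No genome build, annotation, strand setting or details of the filter mentioned in the headers were given in the sources used here. The deposited signal of a gene is its read count over a library-wide size factor, in 1 table. All values were whole multiples of the smallest value in their column (100%, within 0.001 of a read), and these reads were used for count tests. In 4 of the 21 columns the factor was within 1% of 1, where an automatic check of this did not apply. All 21 columns matched a sample title, and 0 were left over.

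The deposited signal was then tested with limma 3.58.1 (R 4.3.3) on log2(value + 1) (intensity trend, two-sided, Benjamini-Hochberg adjustment over 14756 genes, threshold 0.05). The 4 control, 3 24 h and 3 48 h cortex libraries shared 1 fit, and the interaction used all 20 libraries with a group. edgeR 4.0.16 (quasi-likelihood) and DESeq2 1.42.0 (Wald) were run on the recovered reads of the same genes. Other fits varied the pseudocount, filter, scaling, spread model, weights, block and libraries. Only the limma test of 48 h against control was run on simulated counts, where it missed part of the changes put in. edgeR, DESeq2 and the interaction test were not checked in this way. Within a tissue the labels describe separate rats, which gave both tissues. A chi-square of counts between libraries of 1 group was 17.4 to 140.8 times its degrees of freedom. No library was thus a repeat sequencing of another. The chi-square cannot show whether libraries of a group came from different rats.

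The IDs could not be paired with names (0 matches in the RefSeq table of 47357 genes, GRCr8), so the 32 gene lists and the markers were not applied and no sequence is printed. The rule then named the 2 IDs with the smallest p in each direction. The members, rules and lists were chosen with earlier results of these data known. The library of conflicting tissue labels was not used. A library was called doubted where earlier results placed it between the tissues or at low depth.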

Additional observations from a re-analysis of the deposited data

Results flagged for a closer look

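Cortex control 3 had reads in 19688 genes, far from the other controls with 18666 to 18722. It was the only flag in 10 such tests of the 4 cortex controls, over library measures and the example IDs, and chance flags about 1 in 20. This library also had the most reads, 19304803.

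ENSRNOG00000011817 differed by -1.87 on the log2 scale between 48 h and 24 h in cortex. It is listed because all 3 libraries at 24 h lay above all 4 controls and all 3 at 48 h below them. The difference itself missed the threshold in limma (adjusted p = 0.118), and the gene had been picked for its p at 48 h. Its highest value at 24 h came from replicate 3, which lay at 0.26 between the tissues.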

How the results depend on the processing

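limma or another tool called 0 genes in 22 of 24 other fits of cortex at 48 h against control. The exceptions were limma with library weights, with 1 gene, and DESeq2, with 2 genes, all lower. With 1 library left out the number was 0 each time. The number of genes at an unadjusted p under 0.05 was 1879 with library weights, 840 with no filter on low values, 148 when all 20 libraries entered the fit, and 282 to 960 with 1 library left out. With all 20 libraries the spread also comes from hippocampus. Without cortex control 3 and cortex 24 h replicate 3, a choice made after seeing the data, 1094 genes had an unadjusted p under 0.05 and 0 were called. The number of genes without overlap was 1912 to 2498 with 1 library left out, where fewer libraries must separate. The cause of the other shifts was not tested. The interaction with tissue gave 0 genes in all 25 other fits.

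Control and 48 h rats are different animals, so the numbers do not pair the samples. Deviations from the group means had r = -0.24 to -0.21 between same-numbered libraries, for 3 numbers. Between libraries of different numbers r ran from -0.16 to 0.32. Deviations cancel within a group, so these values cannot show whether libraries of 1 number were handled together. With the replicate number as a block, 0 genes were called and 717 had an unadjusted p under 0.05. The 4 example IDs kept their sign in all 96 values over these fits. The log2 differences ran from -1.26 to -1.02 for ENSRNOG00000011817, from -1.21 to -0.97 for ENSRNOG00000043348, from 0.57 to 0.83 for ENSRNOG00000025691 and from 0.81 to 1.18 for ENSRNOG00000018770. With 3 libraries against 4, modest differences of low genes could be missed. For a mean of 10 to 100 the median interval reached 0.86 to either side. Larger differences, and those of abundant genes, could also be missed. ENSRNOG00000011817, with a mean of 1001 and a log2 difference of -1.14, had a limma adjusted p of 0.884. The lack of calls thus does not show that genes did not differ.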
